A study of Mus musculus with 18 samples.

Results

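The comparison set the eutopic endometrium, the lining left in place in the uterus, of ERBOE mice carrying induced endometriosis against the uterus of ERBOE mice without surgery. Its members were the 6 arrays titled ERBOE eutopic endometrium 1 to 3 and ERBOE uterus 1 to 3, taken by title from the 18 arrays of the series. ERBOE is the label of a mouse line that overexpresses oestrogen receptor β, and PRCre/+ is its control, a line with Cre recombinase placed in the progesterone receptor gene. The labels do not say how the overexpression is driven in ERBOE mice. For the eutopic group a uterine fragment of a wild-type C57BL/6J mouse was implanted into ERBOE females aged 8 weeks, and tissue was taken at oestrus 4 weeks later. The uterus group came from ERBOE females aged 12 weeks, also at oestrus, with no implant. Each array was hybridised with Cy3-labelled RNA pooled from 3 mice, so that each group held 9 mice in 3 pools, and an exact permutation test of 3 pools against 3 cannot go below p = 0.1. The PRCre/+ control line gave the same pair of tissues, with 3 pools each, and served to show where the ERBOE difference departed from that of the control line. The groups differ both in the tissue taken and in the surgery, and those cannot be told apart. The source field of the eutopic arrays describes mice without endometriosis, against the titles and the design text, which were followed here.

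The uterus consists of an inner endometrium (a luminal epithelium, glands and stroma) and an outer muscular myometrium. In the mouse, oestrogen acting through its receptor α drives growth and secretion of the luminal epithelium around oestrus, and progesterone turns that response off through Indian hedgehog from the epithelium to its receptor in the stroma. The glands depend on the transcription factor FOXA2, and Wnt signals shape both glands and stroma. Oestrogen receptor β is a second receptor for the same hormone and can oppose or alter the action of receptor α.

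Levels are log2 signals minus the 75th percentile of all probes of the same array, so that a level of 0 is the brightness of the probe at that percentile. A difference is the mean of the 3 eutopic arrays minus the mean of the 3 uterus arrays on that log2 scale, with the standard error (SE) of the limma fit. Over the 41388 probes well above background on 3 or more of the 18 arrays, the 6 arrays correlated with each other at 0.951 to 0.971. The median was 0.963 both within the groups and between them. On these arrays the share of probes well above background ran from 57.5% to 72.8%, with no saturated spot. The arrays lay on 3 slides. Slide 1 held uterus 3, slide 2 held uterus 2 and eutopic 1, and slide 3 held uterus 1 with eutopic 2 and 3. Differences within slides 2 and 3 are therefore given beside those of the whole.

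Tissue markers were read first. The 28 smooth muscle markers, which mark the myometrium, had a median difference of -0.08, with 11 higher and 17 lower in eutopic endometrium. Acta2, smooth muscle actin, stood at 7.45, 7.81 and 7.63 in uterus 1 to 3 and at 7.19, 7.43 and 7.66 in eutopic 1 to 3. Myh11, the smooth muscle myosin heavy chain, stood at 3.80, 3.93 and 3.40 in the uterus and at 3.10, 3.45 and 3.45 in eutopic endometrium. The groups overlapped for Acta2 and for Myh11, and Actg2, the enteric smooth muscle actin, differed by -0.39 ± 0.51 (SE). The arrays labelled eutopic endometrium thus carried muscle markers at levels close to those of whole uterus, and the labels do not say whether the muscle was removed. A dim muscle gene, Pln, which regulates the calcium pump, read 1.16 ± 0.57 higher. The 20 stromal markers had a median of 0.10, with 12 higher and 8 lower, and ran from -0.64 to 2.08. Among those that read higher, Pkdcc was 2.08 ± 0.99 higher, Hand2, a progesterone-regulated stromal factor, 0.66 ± 0.41 higher and Thy1 0.90 ± 0.48 higher. The groups did not overlap for Pkdcc or Hand2.

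No feature passed the test. Of 33186 features tested, 17909 of them with a gene symbol, 0 had an adjusted p under 0.05 in limma with Benjamini-Hochberg adjustment, that is 0% called. Unadjusted p under 0.05 was reached by 1091 features, 627 higher and 464 lower, where 1659 would be expected by that threshold alone. That is 1.89% of features for the higher and 1.4% for the lower direction. The smallest adjusted p, 0.749, was that of Rtn4r, and the next was 1. The 3 eutopic arrays all lay above the 3 uterus arrays for 6.72% of features and all below them for 4.6%. Over all features the median difference was 0.06, and 19106 features read higher and 14080 lower. Every gene and list below is therefore described by its values, against those shares and that median, and none is called changed. The plot of list medians shows the direction of the 21 main lists in both mouse lines.

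**Figure D1:**
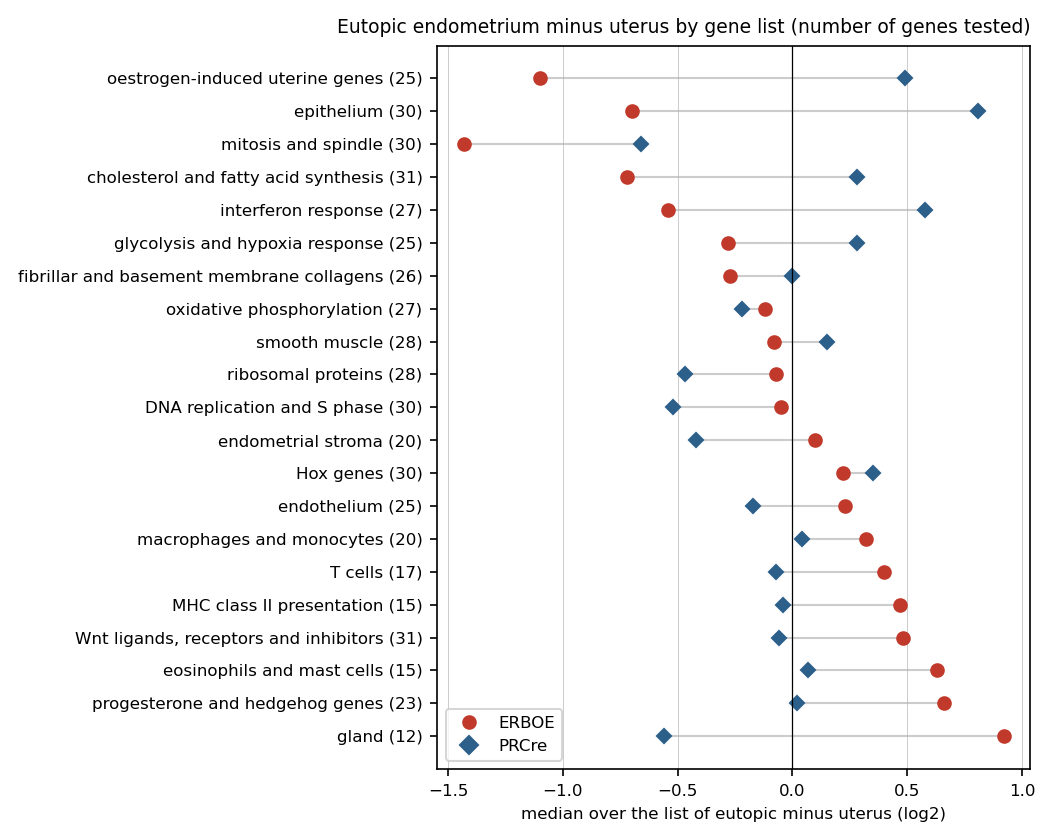
Median over each gene list of eutopic endometrium minus uterus (x axis, log2), for ERBOE (circles) and PRCre (diamonds), with the number of genes tested in brackets. Among the lists plotted, in ERBOE the mitosis list lay lowest at -1.43 and the gland list highest at 0.92, and in PRCre the epithelium list lay highest at 0.81.

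Esr2, which encodes oestrogen receptor β, was first read in each array as the gene named by the label. Its level was 2.42, 2.56 and 2.41 in ERBOE uterus 1 to 3 and 2.76, 2.43 and 2.17 in ERBOE eutopic 1 to 3. The groups overlapped and differed by -0.01 ± 0.20 (SE, adjusted p = 1 in limma). In PRCre uterus the Esr2 level was 2.83, 2.74 and 2.54, so that no ERBOE uterus array lay above the highest PRCre uterus array. No label states whether the Esr2 probe covers the introduced sequence, so these values do not check the label. Esr1, oestrogen receptor α, stood at 3.79, 3.74 and 3.77 in the uterus and at 3.46, 3.88 and 3.80 in eutopic endometrium, a difference of -0.05 ± 0.33. Pgr, the progesterone receptor, differed by -0.14 ± 0.59. The sign of each of these small receptor differences turned under at least one other processing or with an array left out.

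Epithelial markers read lower in eutopic endometrium. Of 30 markers tested, 27 read lower and 3 higher, with a median of -0.70 against 0.06 over all features. For 12 of the 30 all eutopic arrays lay below all uterus arrays, against 4.6% of features. An unadjusted p under 0.05 in limma was reached by 1 of the 30, a lower one, against 1.4% of features. Krt19, a keratin of simple epithelia, stood at 6.84, 6.48 and 5.62 in the uterus and at 4.75, 4.31 and 5.41 in eutopic endometrium. The groups did not overlap, although uterus 3 and eutopic 3 lay close together, and the difference was -1.49 ± 0.85 (SE, adjusted p = 1 in limma). Epcam, an epithelial adhesion molecule, stood at 2.31, 2.04 and 1.41 in the uterus and at 1.23, -0.17 and 1.25 in eutopic endometrium, where eutopic 2 was lowest. Krt8, the partner keratin of the same cells, chosen after its values were seen, differed by -1.13 ± 0.69. Cdh1, E-cadherin, overlapped between the groups at -0.74 ± 0.56, and Perp, a desmosome protein, read 1.19 ± 0.64 lower with no overlap (difference -1.19).

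The epithelial list level, the median over its genes of the level minus the mean of the uterus arrays, was 0.46, 0.12 and -0.56 in uterus 1 to 3 and -0.56, -0.93 and -0.52 in eutopic 1 to 3. Uterus 3, the array alone on slide 1, therefore read like the eutopic arrays. The median difference was -0.59 within slide 2 and -1.20 within slide 3. Without uterus 1 it was -0.45, with 23 of 30 lower. In bulk RNA fewer epithelial cells and less epithelial RNA per cell cannot be told apart.

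Genes that oestrogen induces in the mouse uterus read lower together. Of 25 tested, 23 read lower and 2 higher, with a median of -1.10. For 8 of them no eutopic array reached the lowest uterus array, against 4.6% of features, and 4 had an unadjusted p under 0.05, against 1.4% of features. Krt7, a luminal keratin, stood at 4.61, 4.30 and 3.44 in the uterus and at 2.25, 2.11 and 3.04 in eutopic endometrium, a difference of -1.65 ± 0.62. Padi1, an enzyme that converts arginine in proteins to citrulline, stood at 6.14, 5.92 and 4.59 in the uterus and at 3.22, 2.65 and 4.23 in eutopic endometrium. Both genes were lowest in eutopic 2 and highest in uterus 1, and Padi1 differed by -2.18 ± 0.86. Its relative Padi4 differed by -1.34 ± 0.56.

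Sprr1a is a cornified-envelope protein that oestrogen raises in uterine epithelium. Its level was 0.55, 1.54 and -0.40 in the uterus and -2.59, -3.46 and -1.72 in eutopic endometrium, a difference of -3.15 ± 1.36. All 3 eutopic arrays lay more than 1 log2 unit below the lowest uterus array. The secreted products were less even. C3, complement component 3 made by the luminal epithelium, stood at 9.21, 8.44 and 7.13 in the uterus and at 7.97, 6.50 and 7.01 in eutopic endometrium, so that eutopic 1 exceeded uterus 3. Ltf, lactotransferrin, had its highest level of the 6 arrays, 7.80, in eutopic 1 and its lowest, 3.85, in eutopic 2. Its difference was -0.25 ± 1.64, and it was 0.87 without eutopic 2. Muc1, a mucin of the luminal surface, was at -0.28 in eutopic 2 against 2.17 to 3.78 on the other 5 arrays. Lcn2, lipocalin 2, and Muc4, another mucin, both chosen after their values were seen, were at 1.74 and -0.18 in eutopic 2, their lowest levels of the 6 arrays, with differences of -2.19 ± 1.80 and -2.59 ± 1.59. Without eutopic 2 these were -0.45 and -1.54. Clca1, a secreted goblet-cell protein, was at 8.63 and 7.80 in uterus 1 and 2 and at 6.11, -2.11 and 5.58 in eutopic 1 to 3, with the value of uterus 3 dropped as an outlier spot. Eutopic 2 thus held the lowest levels of this secretory set.

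The level of the oestrogen-induced list was 0.41, 0.15 and -0.66 in uterus 1 to 3 and -0.71, -1.76 and -0.86 in eutopic 1 to 3. No eutopic array reached a uterus array, but uterus 3 lay within 0.1 of eutopic 1. The median was -1.0 within slide 2 and -1.66 within slide 3. The epithelial marker list moved with it on the same arrays, from 0.46 in uterus 1 to -0.93 in eutopic 2, and its part in the result was not tested.

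**Figure D2:**
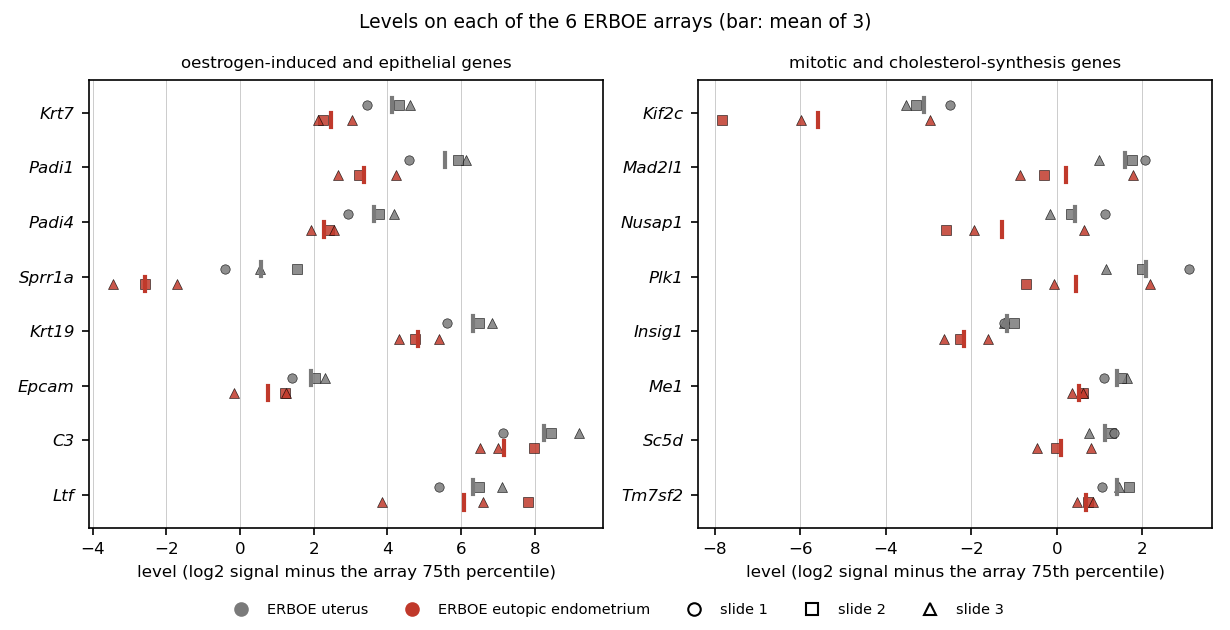
Levels (x axis, log2 signal minus the array 75th percentile) of 8 oestrogen-induced or epithelial genes and 8 mitotic or cholesterol-synthesis genes on the 3 uterus (grey) and 3 eutopic (red) arrays, with the slide as marker shape and the group mean as a bar. Krt7, Padi1, Padi4 and Sprr1a show no overlap, while the 4 mitotic genes show eutopic 3 at or near the uterus arrays.

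Mitotic genes read lower on 2 of the 3 eutopic arrays. All 30 tested genes of the mitosis and spindle list had a lower mean in eutopic endometrium, with differences from -2.49 to -0.79 and a median of -1.43, and 9 had an unadjusted p under 0.05 against 1.4% of features. For 0 of the 30 were the groups free of overlap. The list level was -0.73, -0.11 and 0.80 in uterus 1 to 3 and -2.82, -1.77 and 0.31 in eutopic 1 to 3, so that eutopic 3 stood above uterus 1 and 2. Plk1, the polo-like kinase of mitotic entry, showed it by array, at 1.15, 2.00 and 3.08 in the uterus and at -0.73, -0.08 and 2.18 in eutopic endometrium. Mad2l1, a spindle checkpoint protein, stood at 0.98, 1.76 and 2.06 in the uterus and at -0.30, -0.86 and 1.79 in eutopic endometrium. Nusap1, which bundles spindle microtubules, differed by -1.72 ± 0.77, and Kif2c, a microtubule-depolymerising kinesin, by -2.49 ± 0.94. Kif2c was well above background on 1 of 3 eutopic arrays, and with the normexp background correction its difference was -0.78. Kif11, the kinesin that separates spindle poles, differed by -2.29 ± 0.77 with the value of eutopic 3 dropped as an outlier spot. Its difference was -0.96 in the deposited value table. Bub1 and Bub1b, kinases of the spindle checkpoint, differed by -1.48 ± 0.85 and -0.90 ± 0.49.

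The mitosis median rested on which arrays were compared. It was -2.69 within slide 2 and -0.07 within slide 3. Without eutopic 3 it was -2.28 and without eutopic 1 it was -0.75, with all 30 genes lower each time. DNA replication genes were divided. Of 30 S phase genes tested 20 read lower and 10 higher, with a median of -0.05 and no gene free of overlap. Their list level was -0.90, 0.04 and 0.85 in the uterus and -0.65, -0.77 and 1.24 in eutopic endometrium, again highest in eutopic 3. Tk1, thymidine kinase, differed by -1.01 ± 0.78, Mcm10, a replication initiation factor, by -0.89 ± 0.78, and Mcm2, a subunit of the replicative helicase, by 0.06 ± 0.68.

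Many of the mitotic genes, all of which had a lower mean, also share letters in their promoters. Windows of 300 bases, 250 before and 50 after the start, were read from RefSeq (build GRCm38.p6) for the 26 of 30 genes with an entry. The letters TTTGAA, the core of the cell cycle homology region, occurred on either strand in 19 of the 26, against 15.9% of the 14111 tested genes with a promoter entry. CCAAT, the box bound by NF-Y, occurred in 20 of the 26, against 42.1%. The 150 bases before the start of 4 mitotic genes are shown because each holds at least one of these motifs there; capitals mark TTTGAA and CCAAT, or the same letters read on the other strand as TTCAAA and ATTGG.
Kif11 (GRCm38.p6, chr19:37376232-37376381, plus strand): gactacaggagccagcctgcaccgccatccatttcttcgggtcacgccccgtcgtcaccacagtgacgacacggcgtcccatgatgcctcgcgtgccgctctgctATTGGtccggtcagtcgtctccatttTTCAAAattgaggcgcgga
Kif2c (GRCm38.p6, chr4:117178773-117178922, minus strand): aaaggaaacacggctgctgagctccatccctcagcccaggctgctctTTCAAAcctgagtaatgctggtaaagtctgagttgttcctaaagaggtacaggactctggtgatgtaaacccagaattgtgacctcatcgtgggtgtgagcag
Plk1 (GRCm38.p6, chr7:122159285-122159434, plus strand): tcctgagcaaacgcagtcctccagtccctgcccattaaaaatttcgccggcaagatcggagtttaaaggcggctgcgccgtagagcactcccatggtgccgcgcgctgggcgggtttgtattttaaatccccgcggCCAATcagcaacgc
Bub1 (GRCm38.p6, chr2:127831860-127832009, minus strand): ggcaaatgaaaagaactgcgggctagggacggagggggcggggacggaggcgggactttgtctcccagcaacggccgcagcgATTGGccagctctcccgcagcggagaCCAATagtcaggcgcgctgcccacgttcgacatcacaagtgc
In Kif11 the CCAAT letters begin 45 bases and the TTTGAA letters 19 bases before the start, and Bub1 holds CCAAT letters at 68 and 42 bases. A match is a description of these letters and not a binding site.

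Cholesterol and fatty acid synthesis genes read lower in eutopic 1 and 2. Of 31 tested, 27 read lower and 4 higher, with a median of -0.72, 9 had an unadjusted p under 0.05 (1.4% of features) and 5 showed no overlap with eutopic lower, against 4.6% of features. The list level was -0.46, 0.28 and 0.15 in uterus 1 to 3 and -0.92, -0.94 and -0.07 in eutopic 1 to 3. Insig1, which holds the sterol-sensing complex in the endoplasmic reticulum and is itself a target of the sterol-regulated factor SREBP, stood at -1.24, -1.01 and -1.24 in the uterus and at -2.26, -2.65 and -1.62 in eutopic endometrium. All eutopic arrays were lower, and the difference of -1.01 ± 0.27 had an unadjusted p of 0.00221 and an adjusted p of 1 in limma. Me1, the malic enzyme that supplies NADPH for lipid synthesis, stood at 1.64, 1.50 and 1.1 in the uterus and at 0.60, 0.36 and 0.61 in eutopic endometrium. Tm7sf2, a sterol reductase, stood at 1.46, 1.68 and 1.06 against 0.73, 0.46 and 0.85. Neither gene overlapped between the groups, with differences of -0.89 ± 0.27 for Me1 and -0.72 ± 0.25 for Tm7sf2. Sc5d, a late sterol desaturase, overlapped through eutopic 3 at -1.01 ± 0.34. Hmgcs1, a synthase early in the cholesterol pathway, differed by -0.71 ± 0.38 and Mvk, mevalonate kinase, by -0.24 ± 0.34. The list median was -1.20 within slide 2 and 0.01 within slide 3, although Insig1, Me1 and Tm7sf2 differed by -0.90, -1.15 and -0.81 within slide 3 too.

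Promoter windows were found for 22 of the 31 lipid synthesis genes, and 20 of the 22 held CCAAT letters, against 42.1% of tested genes. The sterol element letters TCACNCCAC occurred in 1 of the 22, Hmgcs1, against 1.37%. CCAAT letters were also common in other lists, in 9 of 11 MHC class II genes and 18 of 22 unfolded protein and heat shock genes. Those lists had medians of 0.47 and -0.17. The 150 bases before the start of Hmgcs1 and of 3 genes with CCAAT letters are shown as examples. Capitals mark TCACNCCAC and CCAAT or ATTGG.
Hmgcs1 (GRCm38.p6, chr13:119690201-119690350, plus strand): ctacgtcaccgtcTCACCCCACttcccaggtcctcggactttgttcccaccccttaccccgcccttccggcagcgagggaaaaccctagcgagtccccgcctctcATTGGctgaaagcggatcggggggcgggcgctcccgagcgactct
Mvk (GRCm38.p6, chr5:114444119-114444268, plus strand): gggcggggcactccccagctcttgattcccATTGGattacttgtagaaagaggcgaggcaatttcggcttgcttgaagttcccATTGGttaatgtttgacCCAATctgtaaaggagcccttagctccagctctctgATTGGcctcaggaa
Sc5d (GRCm38.p6, chr9:42264301-42264450, minus strand): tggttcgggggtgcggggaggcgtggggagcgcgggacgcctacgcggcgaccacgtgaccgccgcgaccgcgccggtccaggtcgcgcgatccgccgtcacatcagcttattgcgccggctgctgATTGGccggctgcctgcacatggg
Tm7sf2 (GRCm38.p6, chr19:6067851-6068000, minus strand): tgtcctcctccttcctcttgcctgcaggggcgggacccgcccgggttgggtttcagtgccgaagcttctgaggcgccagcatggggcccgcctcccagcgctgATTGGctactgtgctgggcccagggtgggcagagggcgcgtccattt
Hmgcs1 holds both motifs, at 137 and 45 bases before the start, while Mvk holds 4 copies of the CCAAT letters within the 150 bases shown. Tm7sf2 holds the letters at 47 bases and Sc5d at 24.

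**Figure D3:**
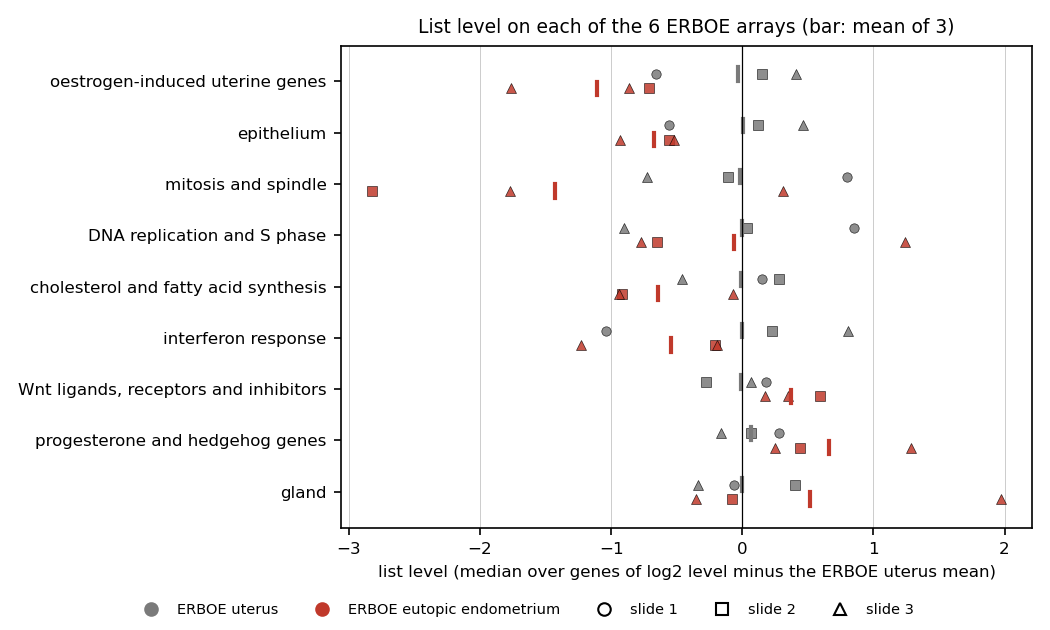
Level of 9 gene lists (x axis, median over the genes of the log2 level minus the ERBOE uterus mean) on each ERBOE array, with the slide as marker shape and the group mean as a bar. The mitosis list of eutopic 3 lies at 0.31 against -2.82 and -1.77 in the other eutopic arrays, and the gland list rests on eutopic 2 at 1.97.

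Interferon-induced genes read lower in 26 of 27 cases, with a median of -0.54, yet 0 of the 27 were free of overlap. The list level was 0.81, 0.23 and -1.04 in uterus 1 to 3 and -0.21, -0.19 and -1.23 in eutopic 1 to 3, so that uterus 3 and eutopic 3 were both low. Oas3, an antiviral oligoadenylate synthetase, differed by -1.38 ± 1.02, Oasl1, its relative, by -1.40 ± 1.08, and Ifit1, which binds foreign RNA, by -0.38 ± 1.00. The median was -1.04 without uterus 3, -0.23 without uterus 1 and -0.26 without eutopic 3. It was -0.44 within slide 2 and -1.41 within slide 3.

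Progesterone and hedgehog genes read higher as a list. Of 23 tested, 17 read higher and 6 lower, with a median of 0.66, and 6 had all eutopic arrays above all uterus arrays, against 6.72% of features. Ihh, Indian hedgehog, the epithelial ligand, stood at -2.38, -1.85 and -0.97 in the uterus and at 1.22, 3.04 and 0.95 in eutopic endometrium. Every eutopic array lay above every uterus array, with a difference of 3.47 ± 2.06. Gli1, the transcription factor that reports hedgehog signalling, stood at -0.94, 1.90 and 3.22 in the uterus and at 2.96, 4.57 and 3.71 in eutopic endometrium. Uterus 3 exceeded eutopic 1, and Gli1 differed by 2.35 ± 1.24. Ptch1, the receptor of the ligand, differed by 1.19 ± 0.81 with overlap. In the stroma Nr2f2, a nuclear receptor downstream of Indian hedgehog, and Hoxa10, a homeobox factor of progesterone response, read 0.66 ± 0.31 and 1.01 ± 0.52 higher without overlap. Msx1, a homeobox factor of endometrial receptivity chosen after its values were seen, read 1.05 ± 0.58 higher. Eutopic 2 was highest for Ihh and Gli1, and without it the list median was 0.39. Within slides 2 and 3 the median was 0.49 and 1.11.

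Gland genes had a median of 0.92 over 12 genes, 8 higher and 4 lower, but it was -0.24 without eutopic 2 and 1.42 without eutopic 1. With only probes well above background on all 18 arrays it was 0.45. Spink1, a trypsin inhibitor, was at 7.11 in eutopic 2 against -6.55 to -0.54 on the other 5 arrays, and Prss28, a secreted implantation serine protease, was at 4.28 in eutopic 2 against -3.19 to -1.23. Foxa2, the regulator of gland formation, did not rest on one array. It stood at -0.85, -0.51 and -0.50 in the uterus and at 0.44, 0.74 and 0.40 in eutopic endometrium, a difference of 1.14 ± 0.88 without overlap. Cxcl15, a glandular chemokine, stood at -2.22, -3.15 and -1.88 in eutopic endometrium and was not well above background on any uterus array, at least 5.40-fold higher (fitted difference 3.31 ± 1.1, and 1.11 with normexp). Such "at least" folds set the eutopic mean against the higher of the dim probe's own level and the lowest signal well above background on each uterus array. They are bounds for this processing only. The normexp values given beside such folds here and below are log2 differences, and each corresponds to a smaller fold than the bound. Sox9, a progenitor factor, read the other way, with a difference of -0.94 ± 0.52 and no overlap, and -0.39 on another probe that was well above background on all 18 arrays. Aldh1a1, a retinoic acid enzyme, differed by 0.94 ± 0.63.

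Wnt ligands, receptors and inhibitors read higher in 24 of 31 cases, with a median of 0.48, and 7 had no overlap with eutopic higher, against 6.72% of features. Unadjusted p was under 0.05 for 4 of the list in that direction, against 1.89% of features. Lgr5, the R-spondin receptor of epithelial progenitors, stood at -1.40, -2.56 and -3.33 in eutopic endometrium and was not well above background on any uterus array, at least 5.35-fold higher (fitted difference 3.34 ± 1.49, and 1.18 with normexp). Sfrp2, a secreted Wnt inhibitor of the stroma, stood at 0.49, -1.29 and -0.09 in the uterus and at 0.92, 1.83 and 0.75 in eutopic endometrium, a difference of 1.46 ± 0.55. Wnt6, a stromal ligand, read 2.02 ± 0.66 higher, with eutopic 2 at -0.94 far above the other eutopic arrays at -3.75 and -3.54. Dkk3, a Dickkopf family member, differed by 1.00 ± 0.45 with overlap. Wnt4, the ligand required for decidualisation, was at 0.99 in eutopic 2 against 3.12 to 4.74 on the other arrays, and its difference of -0.17 became 0.91 without that array. The list median was 0.70 within slide 2 and 0.41 within slide 3, and 0.20 with normexp. Among BMP and activin genes, 17 of 25 read higher with a median of 0.24. Inhbb, the activin B subunit, read 1.44 ± 0.88 lower (difference -1.44) without overlap, Gdf10, a BMP family ligand, differed by 0.89 ± 0.57, and Bmp8a by -0.92 ± 0.45.

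Of the immune marker lists, 4 read mostly higher by small amounts. Of 20 macrophage markers 18 read higher (median 0.32), of 17 T cell markers 15 (median 0.40), of 15 MHC class II genes 13 (median 0.47), and of 15 mast cell and eosinophil markers 13 (median 0.63). Of 22 markers of NK and cytotoxic lymphocytes 15 read higher (median 0.16), with a median of -0.13 within slide 2 and -0.12 without eutopic 2. The macrophage median was 0.06 without eutopic 1, 0.15 without uterus 3 and -0.15 within slide 3. The T cell median was 0.25 without eutopic 1, 0.21 without uterus 1, 0.66 without eutopic 3 and 0.12 with normexp. The mast cell and eosinophil median was 0.36 without eutopic 1, 0.29 without uterus 1 and 0.30 with normexp. Csf1r, the macrophage growth factor receptor, stood at 4.15, 3.78 and 3.69 in the uterus and at 4.87, 4.18 and 4.37 in eutopic endometrium, just without overlap. H2-Aa and H2-Ab1, chains of the class II molecule that presents antigen, differed by 0.79 ± 0.63 and 0.67 ± 0.53, both highest in eutopic 1. Hdc, which makes histamine, stood at 0.64, 0.81 and 0.56 in the uterus and at 2.10, 5.31 and 1.57 in eutopic endometrium, with no overlap. Of 17 B and plasma cell markers 9 read higher and 8 lower (median 0.01), and Cd79b, a chain of the B cell receptor, read 1.18 ± 0.47 lower (difference -1.18). Complement genes had a median of 0.24, and Cd59a, which blocks the terminal complement pore, read 0.72 ± 0.31 higher without overlap.

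Single pools held high levels of some markers of other cells, while other markers of the same lists did not follow. Adipoq, the adipocyte hormone adiponectin, was at 0.54 in eutopic 1 against -6.90 to -3.55 on the other 5 arrays, and Retn, resistin, at 1.50 against -5.39 to -2.46. The 19 adipocyte markers as a list had a median of 0.08, with 11 higher and 8 lower. Their list level ran from -0.23 to 0.20 in the uterus and from -0.55 to 0.58 in eutopic endometrium. Cidea, of the same list, was at -3.68 in eutopic 1, against -2.85 to -0.67 in the uterus. S100a8 and S100a9, the calprotectin chains of neutrophils, were at 1.57 and 3.30 in eutopic 1, at -1.45 and 0.09 in eutopic 3, and at or below -2.55 on all other arrays. The 15 neutrophil markers as a list ran from -0.22 to 0.12 in the uterus and from -0.27 to 0.43 in eutopic endometrium. Their median difference was 0.21, with 9 higher and 6 lower. Mpo, of the same list, was at -2.83 in eutopic 1, against -1.93 to -1.36 in the uterus. Il1b, an inflammatory cytokine, was at -1.42, -5.07 and -4.0 in eutopic 1 to 3 and not well above background on any uterus array, at least 2.55-fold higher by the mean of the 3 eutopic arrays. Its difference of 1.87 became 0.83 without eutopic 1 and 0.54 with normexp. Fst, follistatin, an activin antagonist, was at 0.27 in eutopic 2 against -4.92 to -3.66 elsewhere. Any part of such cells in the other lists was not tested beyond leaving out each array.

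**Figure D4:**
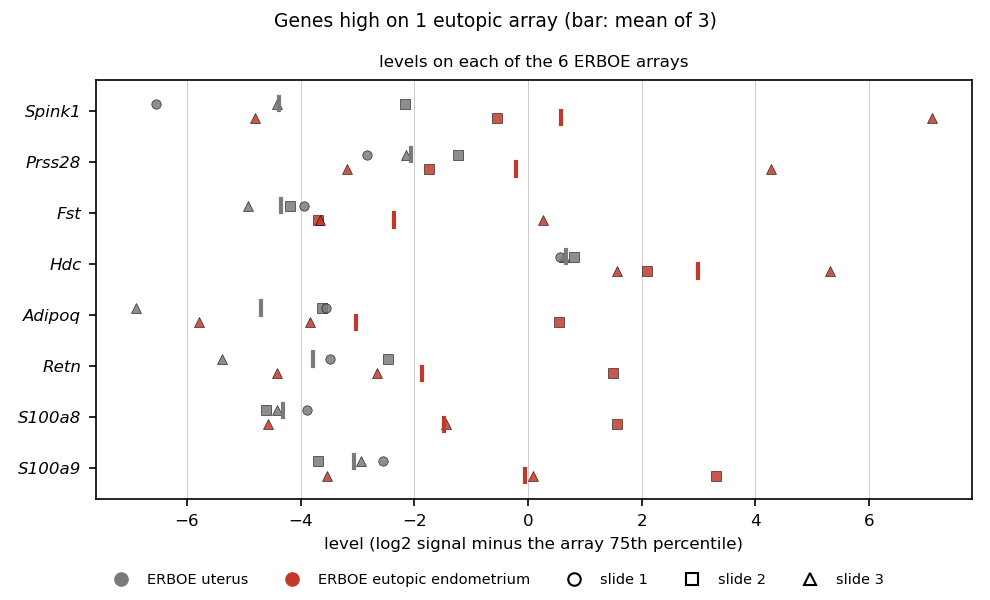
Levels (x axis, log2 signal minus the array 75th percentile) of 8 genes on the 3 uterus (grey) and 3 eutopic (red) arrays, with the slide as marker shape and the group mean as a bar. Spink1, Prss28, Fst and Hdc are high in eutopic 2, and Adipoq, Retn, S100a8 and S100a9 in eutopic 1.

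Metabolic and matrix genes showed smaller differences. Of 25 glycolysis and hypoxia genes 19 read lower (median -0.28, and -0.43 with slide as a random block), and 7 had no overlap with eutopic lower, against 4.6% of features. Gapdh, a glycolytic dehydrogenase often used as a loading standard, stood at 6.89, 6.57 and 6.88 in the uterus and at 5.90, 6.30 and 6.49 in eutopic endometrium. Ldha, which converts pyruvate to lactate, differed by -0.64 ± 0.34 without overlap. Of 27 oxidative phosphorylation genes 24 read lower by a median of only -0.12, and 10 had no overlap with eutopic lower, against 4.6% of features. Among these 10 were Atp5b of the ATP synthase at -0.36 ± 0.20 and Cox5a of cytochrome oxidase at -0.51 ± 0.30. In PRCre 23 of the 27 genes read lower too, with a median of -0.22. Ribosomal protein genes, at a median of -0.07, and Hox genes, at 0.22, lay near the median of all features. Of the 28 ribosomal genes 25 read lower, and in PRCre all 28 did, with a median of -0.47. Of the 30 Hox genes 22 read higher in ERBOE and 22 in PRCre, where the median was 0.35.

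Collagens read lower in 19 of 26 cases with a median of -0.27, and -0.13 with slide as a block. Col1a1, the main fibrillar collagen chain, differed by -0.64 ± 0.78 with overlap. Mmp2, a gelatinase of the stroma, read the other way, at 1.91, 1.09 and 1.84 in the uterus and 2.55, 3.22 and 2.27 in eutopic endometrium, a difference of 1.07 ± 0.32 with no overlap. Itga6, the laminin receptor subunit at the base of epithelial cells, stood at 5.19, 5.35 and 4.63 in the uterus and at 3.87, 3.75 and 4.32 in eutopic endometrium, and its ligand chain Lama5 differed by -0.74 ± 0.39. Glutathione and antioxidant enzymes split, 12 higher and 12 lower. Gstm1, a glutathione transferase, stood at 2.89, 2.70 and 2.71 in the uterus and at 4.01, 3.89 and 3.27 in eutopic endometrium, while Gsta2, another transferase, Nqo1, a quinone reductase, and Gpx1, glutathione peroxidase 1, differed by -1.42 ± 0.61, -1.02 ± 0.45 and -0.67 ± 0.30, each without overlap. Hspa1b, an inducible heat shock protein, differed by -0.89 ± 0.40. Fos, an immediate-early factor, read 1.63 ± 0.88 lower without overlap (difference -1.63). Khdc1a and Khdc1c, both KH-domain genes chosen after their values were seen, differed by 0.80 ± 0.87 and 0.74 ± 0.53 with overlap.

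Across all genes, those with the smallest unadjusted p, no overlap and a signal well above background in the higher group were taken, 15 in each direction, none passing the adjusted threshold. Among the higher ones Dtx4, a ubiquitin ligase of the Notch pathway, stood at 1.32, 0.91 and 1.29 in the uterus and at 2.17, 2.39 and 2.07 in eutopic endometrium, a difference of 1.04 ± 0.21. Cxcl14, a chemokine made by uterine epithelium and stroma, stood at 1.12, 0.87 and 1.73 in the uterus and at 3.00, 3.32 and 2.74 in eutopic endometrium, a difference of 1.78 ± 0.45. Cldn1, a tight junction claudin, stood at -1.26, -2.81 and -2.05 against 1.17, 0.36 and -0.21. The lack of overlap for these 3 genes was part of how they were taken, and their separation within slides 2 and 3 follows from it.

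Epha8, an ephrin receptor, stood at -1.12, -1.53 and -1.38 in eutopic endometrium and was not well above background on any uterus array, at least 10.8-fold higher (fitted difference 3.70 ± 0.83, and 1.63 with normexp). Rtn4r, the Nogo receptor with the smallest p, was also not well above background in the uterus and was at least 1.59-fold higher, with a difference of 0.21 under normexp. C9, a subunit of the complement pore, at least 1.95-fold, Pmfbp1, at least 1.82-fold, and Ccdc177, at least 1.41-fold, had the same limit. The probe of Cadps, a vesicle-priming protein, was not well above background in the uterus either. Nme4, a mitochondrial nucleoside diphosphate kinase, read 1.34 ± 0.32 higher, Klkb1, plasma kallikrein, 1.79 ± 0.39, Eml5 1.32 ± 0.32, Fhit, a nucleotide hydrolase, 0.70 ± 0.19, and 4930431P03Rik 1.14 ± 0.31.

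Among the lower ones Klf4, an epithelial transcription factor, stood at 5.08, 5.11 and 4.95 in the uterus and at 2.91, 3.95 and 4.04 in eutopic endometrium, a difference of -1.42 ± 0.40. Dusp6, a phosphatase that dampens ERK signalling and is induced by it, stood at 2.68, 2.79 and 2.96 in the uterus and at 1.96, 1.75 and 2.02 in eutopic endometrium. Slc16a6, a monocarboxylate transporter, stood at 2.98, 3.33 and 3.07 in the uterus and at 1.69, 1.32 and 2.28 in eutopic endometrium. The lack of overlap was again part of the choice, and the differences were -0.90 ± 0.23 for Dusp6 and -1.36 ± 0.30 for Slc16a6. Adgrb1, an adhesion receptor, differed by -2.34 ± 0.57, and by -0.90 when its probes were averaged. Cdk14, a cyclin-dependent kinase, differed by -0.86 ± 0.22, Ccdc65, a ciliary protein, by -1.64 ± 0.46, and Hmgn5, a nucleosome-binding protein, by -0.99 ± 0.28. Rab3d, a GTPase of secretory vesicles, Rep15, which binds a recycling Rab, and Map3k20, a stress kinase, differed by -0.77 ± 0.23, -0.72 ± 0.20 and -0.74 ± 0.22. Serpinb10, a protease inhibitor, was not well above background on any eutopic array, at least 3.56-fold lower. The transcripts Dbpht2 and 2210039B01Rik differed by -2.66 ± 0.79 and -1.51 ± 0.47, and by -0.92 and -0.79 with normexp. Dbpht2 was well above background on 1 of the 3 eutopic arrays and 2210039B01Rik on 2 of the 3. Insig1, described above, was also among the lower genes.

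**Figure D5:**
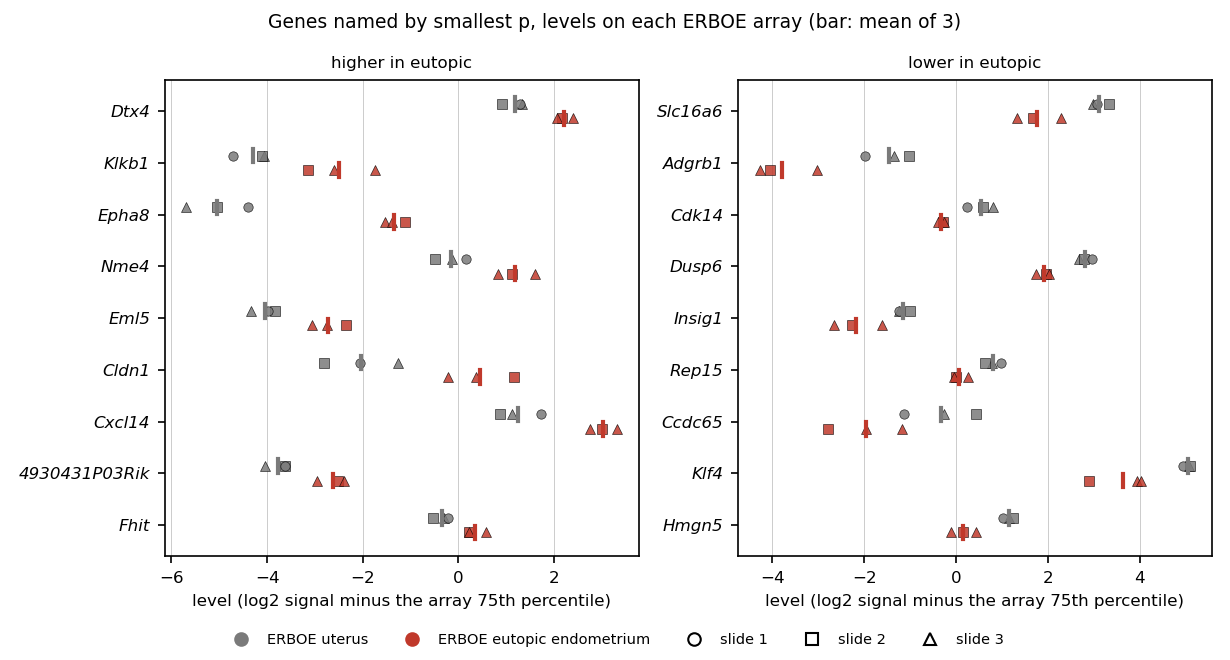
Levels (x axis, log2 signal minus the array 75th percentile) of 9 genes that read higher and 9 that read lower in eutopic endometrium, on the 3 uterus (grey) and 3 eutopic (red) arrays, with the slide as marker shape and the group mean as a bar. The groups do not overlap for any of the 18 genes, which is part of how they were named, and none has an adjusted p under 0.05.

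The same comparison in PRCre mice shares no array with that in ERBOE. There 0 features passed and 2215 had an unadjusted p under 0.05, and over all features the differences of the mouse lines correlated at -0.06 as a description. For the difference between the mouse lines (ERBOE eutopic minus uterus, minus the same in PRCre), 0 of 33186 features, or 0%, had an adjusted p under 0.05 in limma, with a smallest adjusted p of 0.941 and 1694 features at an unadjusted p under 0.05. The epithelial list read -0.70 in ERBOE and 0.81 in PRCre. All 30 genes had a negative difference between the lines (median -1.48, against 0.12 over all features). Of them 9 had an unadjusted p under 0.05 in limma, against 5.1% of features. Krt19 of this list differed between the lines by -2.88 ± 1.20. C3, of the oestrogen-induced list, differed by -2.95 ± 0.87. The PRCre arrays were themselves uneven. On the scale of the ERBOE uterus mean, the epithelial list level was -0.64, -1.35 and -1.41 in PRCre uterus. It was -1.36, 0.44 and 0.03 in PRCre eutopic endometrium and -0.56, -0.93 and -0.52 in ERBOE eutopic endometrium. The ERBOE uterus arrays set the origin of that scale, so it cannot show which group the contrast between the lines came from.

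Oestrogen-induced genes had a median of 0.49 in PRCre against -1.10 in ERBOE, cholesterol synthesis genes 0.28 against -0.72, and interferon genes 0.58 against -0.54. The PRCre groups overlapped in the level of each of these lists. The oestrogen-induced list stood at -0.57, -1.30 and -2.31 in PRCre uterus and at -2.16, 0.06 and 0.09 in PRCre eutopic endometrium. The interferon list stood at 0.36, -1.09 and -0.79 against -1.14, 0.74 and 0.51, and the cholesterol list at -1.61, -0.70 and -1.29 against -1.02, -0.72 and -0.62. Of the 31 cholesterol and fatty acid genes 24 had a negative difference between the lines, against 13539 of all 33186 features. An unadjusted p under 0.05 was found for 12 of them, against 5.1% of features, among them Insig1 at -1.46 ± 0.39 and Tm7sf2 at -1.34 ± 0.35. Mitotic genes read lower in both lines, with medians of -1.43 in ERBOE and -0.66 in PRCre. The PRCre groups overlapped too, with list levels of -2.11, -1.89 and -0.96 in uterus and -3.20, -2.93 and -0.85 in eutopic endometrium. PRCre eutopic 3 thus lay above every PRCre uterus array. By the same rule as above, the genes with the smallest p for a higher difference in ERBOE were Nme4 at 2.15 ± 0.45, Npl, a sialic acid lyase, at 2.93 ± 0.62, Epha8, Rtn4r and Tspan11, a tetraspanin, at 2.69 ± 0.67. Those for a lower difference were Cdk14 at -1.56 ± 0.31, Dusp6 at -1.38 ± 0.32, 2210039B01Rik at -2.69 ± 0.66, Tm7sf2 and Insig1. Cdk14 read 0.69 ± 0.22 higher in PRCre and 0.86 ± 0.22 lower in ERBOE (difference -0.86), and Dusp6 0.48 ± 0.23 higher in PRCre. None of these differences between the lines passed the adjusted threshold.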

How the data were processed

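One-colour Agilent arrays were scanned for 18 RNA pools in 6 groups, 3 pools of 3 mice each. The deposited scanner files hold background-subtracted spot intensity from Feature Extraction 11.0.1.1, per the file headers. The deposited table of the authors' processed values is on a log2 scale centred per probe; its making is described in no label or header, and it served as an alternative. Intensity was converted to log2 minus the 75th percentile of each array, control spots and outlier spots were left out, and spots of a probe were averaged. Of 56605 probes, 41388 were kept, those well above background on 3 or more arrays, and the brightest probe of each symbol was taken. Symbols came from RefSeq (GRCm38.p6) through the probe's accession, for 32994 probes. All 18 arrays entered 1 linear model with a mean for each group in limma 3.58.1 (R 4.3.3; 12 residual degrees of freedom, prior 2.49), with Benjamini-Hochberg adjustment at 0.05. The script was tested on simulated data. Group members and gene lists were chosen with earlier results of these data known, so a list is described by counts and medians and not tested. Genes were named by smallest p among those with no overlap and a signal well above background in the higher group, 15 each way, and within each list by smallest p with its first 3 genes; some genes that the rule picked are not reported here. Other normalizations, filters, blocks, weights and left-out arrays were tried. The normexp alternative used median spot signals, since the planned mean signals were not used here. The spread is between pools of RNA, and the number of arrays limits the precision. Pools with the same number in both groups deviated together at correlations of 0.13, -0.13 and 0.22, against -0.32 to 0.27 for unlike numbers. With 3 pools a group these values cannot decide whether pools were paired. The numbers are not said to pair pools, so no pairing was used in the main model.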

Additional observations from a re-analysis of the deposited data

How the results depend on the processing

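The ERBOE comparison gave 0 features past the threshold under each of the alternatives tried, and so did the difference between the mouse lines, leaving out any of the arrays of each comparison included. The lowest smallest adjusted p for ERBOE was 0.0911 with array weights, where 3035 features had an unadjusted p under 0.05, against 637 without eutopic 2. With the replicate block, which treats equal pool numbers as paired, the ERBOE count was also 0, with 1173 at an unadjusted p under 0.05. The PRCre comparison gave 1 feature with normexp and 0 to 2 when arrays were left out one at a time, with 2 without PRCre uterus 1 and 1 without PRCre uterus 2 or PRCre eutopic 1. With PRCre uterus replicate 1, the dimmest array, left out of the shared fit (chosen after seeing the data), the ERBOE count was 0, with 1391 unadjusted.

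Of the recomputed gene differences, counted over all settings, 20 turned sign and 2623 did not. Esr2 read 0.05 with normexp and 0.06 with quantile normalization, Esr1 0.03, 0.04 and, with slide as a fixed block, 0.07, Pgr 0.22 with that block, and Mcm2 -0.01 with normexp. Leaving out 1 array at a time, the range was -0.17 to 0.13 for Esr2, -0.13 to 0.08 for Esr1, -1.11 to 0.87 for Ltf, -0.54 to 0.44 for Mcm2, -1.13 to 0.17 for Ifit1, -0.56 to 0.01 for Mvk, -0.13 to 3.04 for Adipoq, -0.4 to 3.34 for Prss28 and -0.96 to 0.91 for Wnt4. The causes were not tested. Differences of probes near background shrank with normexp, as given beside them, and the median over all features ran from -0.09 with normexp to 0.12 without eutopic 3.

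With 3 pools a group, mice of a pool cannot be separated, tissue taken and surgery cannot be told apart, and slide is partly confounded with them.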

Other observations

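Other gene groups not described above held no gene past the threshold. Endothelial markers read higher in 21 of 25 cases, with a median of 0.23, which ran from 0.01 to 0.41 with 1 array left out at a time. Their list level was 0.12, 0.78 and -0.01 in eutopic 1 to 3. Prostaglandin and steroid synthesis genes read higher in 17 of 23, with a median of 0.17. Motile cilia genes had 4 of 10 higher, and 7 of the 17 on the array were too dim to test. Apoptosis and inflammasome genes read lower in 17 of 25, with a median of -0.10, and immediate-early genes divided 11 to 13. Lrig1, a negative regulator of EGF receptor signalling, stood at 3.53, 3.67 and 3.27 in the uterus and at 2.61, 1.77 and 2.95 in eutopic endometrium, a difference of -1.05 ± 0.49 with no overlap. Aqp11, a water channel of intracellular membranes, read 1.81 ± 0.77 higher with the value of uterus 2 dropped as an outlier spot.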
